A study of Mus musculus with 2 samples.

Results

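Transcripts of 7 genes that move membrane through the cell were examined in RNA pulled down from mouse forebrain with BG4, an antibody that binds G-quadruplexes. A G-quadruplex is a stacked fold of guanine-rich RNA or DNA. The genes were Stx5a, Stxbp5, Syt7, Copz1, Itsn1, Atp6v1a and Rundc3a, chosen by name from the 170 genes of the deposited table for their part in vesicle fusion, coats and synaptic trafficking. There were 2 libraries, 1 of RNA bound by BG4 and 1 of RNA bound by normal rabbit IgG, the control with no chosen target. Both came from forebrain lysate that had been precleared on Protein G, and BG4 was held on the column by its His tag. The labels give no strain, age, sex or genotype of the mice and no count of animals. With 1 library per antibody, no value below carries a spread between samples and no test of the antibodies was possible.

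Vesicles bud from a donor membrane with the help of coat proteins and fuse with a target membrane when SNARE proteins on the 2 sides zip together. At the synapse this cycle is triggered by calcium, which synaptotagmins sense, and it is renewed by endocytosis and by a proton pump that energises the refilling of vesicles with transmitter. Messenger RNAs for these proteins are abundant in neurons, and some neuronal mRNAs hold guanine-rich stretches in their untranslated regions.

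The table lists only genes that were higher in BG4, with authors' p-values up to 0.04865, so the direction and the presence of the 7 genes come from that selection. Their values are therefore given as a description. All 7 were above 2-fold in the ratio of (BG4 + 1) to (IgG + 1) FPKM, as were 100% of the 170 rows. FPKM is a value per transcript length and per mapped fragments, a unit inferred from the table's layout. Read depth and the scaling between the libraries are unknown. When each library was divided by its own table median before 1 was added, 4 of the 7 genes turned to a ratio below 1 (Stx5a, Copz1, Itsn1 and Rundc3a) and 3 stayed above it, as 87 of the 170 rows turned below 1. This division centres the table by construction, so about as many rows turn as stay.

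In the IgG library the 7 values ran from 0.0448 FPKM for Stxbp5 to 2.21 FPKM for Itsn1, with a median of 0.178 against 0.143 over the table. In the BG4 library they ran from 4.01 FPKM for Copz1 to 100.5 FPKM for Itsn1, with a median of 6.17 against 7.88. The values of the 2 libraries did not overlap among the 7 genes, and this was no trait of theirs. BG4 values of the table began at 3.76 FPKM, and 90% of the 170 rows had an IgG value under 1 FPKM. The table as a whole overlapped only through its highest IgG values, which reached 1198 FPKM. The median log2 ratio with 1 FPKM added was 2.75 for the 7 genes and 2.87 for the table. The members thus lay across the body of the table: 3 of 7 were above its median log2 ratio, and 3 of 7 above its median BG4 value.

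**Figure D1:**
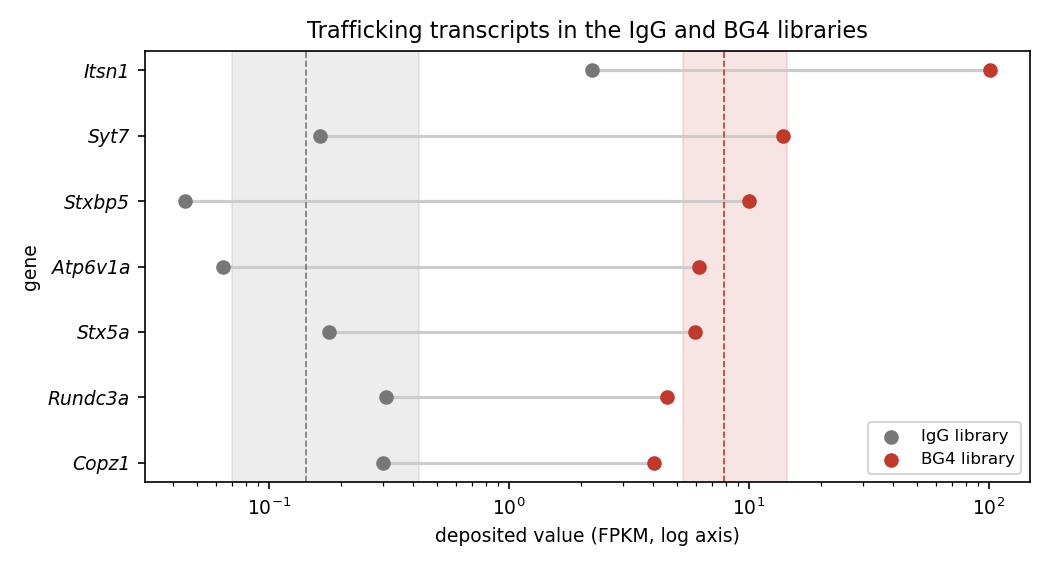
Deposited FPKM (log axis) of each gene in the IgG library (grey) and the BG4 library (red), with 1 library per antibody and no error bars. Shaded bands are the quartiles of all 170 rows in each library and dashed lines their medians: Itsn1 lies above both bands, the BG4 values of Copz1 and Rundc3a lie below the BG4 band, and the IgG values of Stxbp5 and Atp6v1a lie below the IgG band.

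Stx5a encodes a SNARE of the Golgi that serves traffic between the endoplasmic reticulum and the Golgi and within it. Its value was 0.178 FPKM in IgG and 5.99 FPKM in BG4, a 33.6-fold ratio without a pseudocount. On the log2 scale with 1 FPKM added the ratio was 2.57, number 113 of 170 from the top. The q of 0.0322 in the authors' deposited table was the lowest among the 7 genes and number 10 of the table, although 4 of the other 6 genes had a higher fold. The q-value compares those libraries, not the antibodies. The locus (ENSMUSG00000010110.13) equalled the annotated gene at both ends, 8741413 to 8756069 on the plus strand of chromosome 19 in mm10. The miRNA gene Mir6992 lies on the same strand, and all 109 of its bases fall in annotated Stx5a exons. Reads of both genes cannot be told apart there.

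Stxbp5 encodes tomosyn, a protein that binds SNARE partners and holds back the assembly of the fusion complex. It had the lowest IgG value of the 7 genes, 0.0448 FPKM, and 10.02 FPKM in BG4. The fold of 224 was the highest of the 7 and number 17 of the 169 rows with a usable fold. It was the only one of the 7 at 100-fold or more, against 32% of the table. With 1 FPKM added the log2 ratio was 3.40, number 54 of 170. The authors' deposited table gives q = 0.0423. Stx5a and Stxbp5 were the 2 of 7 genes under a q of 0.05 there, against 8.24% of all rows, and since these values chose the table nothing is read from that difference. Set side by side, Stxbp5 was 1.67 times Stx5a in BG4, whereas Stx5a was 3.98 times Stxbp5 in IgG. The snoRNA gene Gm25635 lies inside Stxbp5 on the same strand without touching an annotated exon of it.

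Syt7 encodes a synaptotagmin with high affinity for calcium, known for asynchronous release and facilitation at synapses and for lysosome exocytosis. Its values were 0.163 FPKM in IgG and 13.9 FPKM in BG4, an 85.0-fold ratio and a log2 ratio of 3.67 with 1 FPKM added. It was second of the 7 in BG4, yet its q of 0.332 in the authors' deposited table was the highest of the 7 and number 167 of 170. Exons of Syt7 share 384 bases with the non-coding gene Gm26859 on the opposite strand. The sources used here do not say whether counting used strand, so reads of the 2 genes may be mixed in its value. Another annotated gene, AC124169.1, lies inside Syt7 on the same strand without touching an annotated exon of it.

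Copz1 encodes the zeta subunit of coatomer, the coat of vesicles that return from the Golgi to the endoplasmic reticulum. It had the lowest BG4 value of the 7, 4.01 FPKM, with 0.299 FPKM in IgG. Its 13.4-fold ratio was also the lowest, number 154 of 169, and its log2 ratio with 1 FPKM added was 1.95. That left it as the 1 gene of 7 not above 4-fold on this scale, which 96.5% of rows were. All 7 genes, Copz1 included, were at 10-fold or more without a pseudocount, against 96.4% of rows. The authors' deposited table gives it a q of 0.219. Mir148b lies in the gene without touching an annotated exon.

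Itsn1 encodes intersectin, a scaffold that links clathrin-coated pits to dynamin, actin regulators and synaptic vesicle recycling. It stood apart from the other 6 in both libraries, with 2.21 FPKM in IgG and 100.5 FPKM in BG4. These were 7.17 and 7.25 times the next highest of the 7, and 15.4 and 12.8 times the table's medians. It was number 6 of 170 in IgG and number 7 in BG4. Because both values were high, its place depended on the scale: number 10 of 170 by log2 ratio with 1 FPKM added (4.98), and number 102 of 169 by fold (45.5). Its q in the authors' deposited table was 0.260.

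The deposited locus of Itsn1 was much wider than the gene. It ran from 91647506 to 91962915 on chromosome 16, 315410 bases, whereas the annotated gene (plus strand) runs from 91729281 to 91920597. The locus began 81775 bases before the gene, at the annotated start of Son, and ended 42318 bases after it, at the annotated end of the antisense gene D430001F17Rik. It touched 10 other annotated genes, among them Donson, Cryzl1 and both gene models of Atp5o. None of the 10 shares exon bases with Itsn1. Whether reads of these neighbours entered the Itsn1 value was not tested. The other 6 loci matched the annotated gene at both ends or, for Syt7 (1 base) and Copz1 (197 and 6 bases), nearly so.

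**Figure D2:**
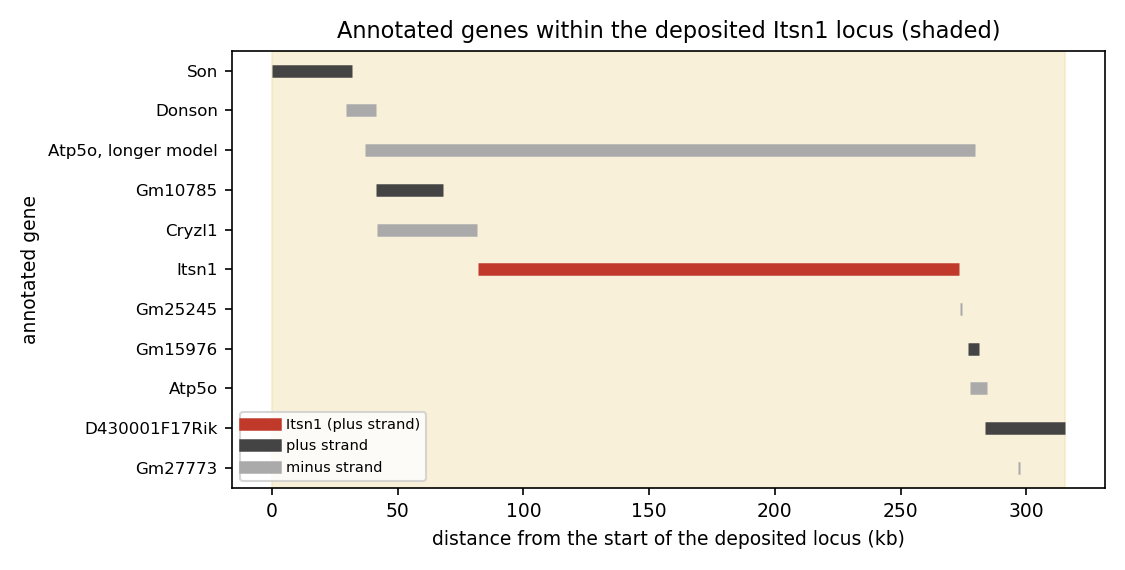
Annotated genes inside the deposited Itsn1 locus (shaded), by distance in kb from the start of that locus; red is Itsn1, dark grey other plus-strand genes, light grey minus-strand genes. Itsn1 covers 191317 of the 315410 bases, and Son and D430001F17Rik reach the 2 ends.

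Atp6v1a encodes the catalytic subunit of the vacuolar proton pump, which acidifies vesicles, endosomes and lysosomes. Its values were 0.0647 FPKM in IgG and 6.17 FPKM in BG4. The 95.3-fold ratio was second of the 7, and the log2 ratio with 1 FPKM added was 2.75, number 96 of 170. A q of 0.305 stands beside it in the authors' deposited table. Together with Stxbp5 and Syt7 it made up the 3 of 7 genes at 50-fold or more, against 54.4% of rows. No other annotated gene lies in its locus (chromosome 16, 44085402 to 44139705, minus strand).

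Rundc3a encodes a RUN domain protein of neurons that binds the small GTPase Rap2 and has been tied to vesicle transport. With 0.308 FPKM in IgG and 4.56 FPKM in BG4 it resembled Copz1: its fold was 14.8 and its log2 ratio with 1 FPKM added 2.09. These 2 genes had the lowest BG4 values of the 7 and, after Itsn1, the highest IgG values. The q in the authors' deposited table was 0.254. Its locus, 102393403 to 102402555 on the plus strand of chromosome 11, equalled the annotated gene and held no other gene.

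**Figure D3:**
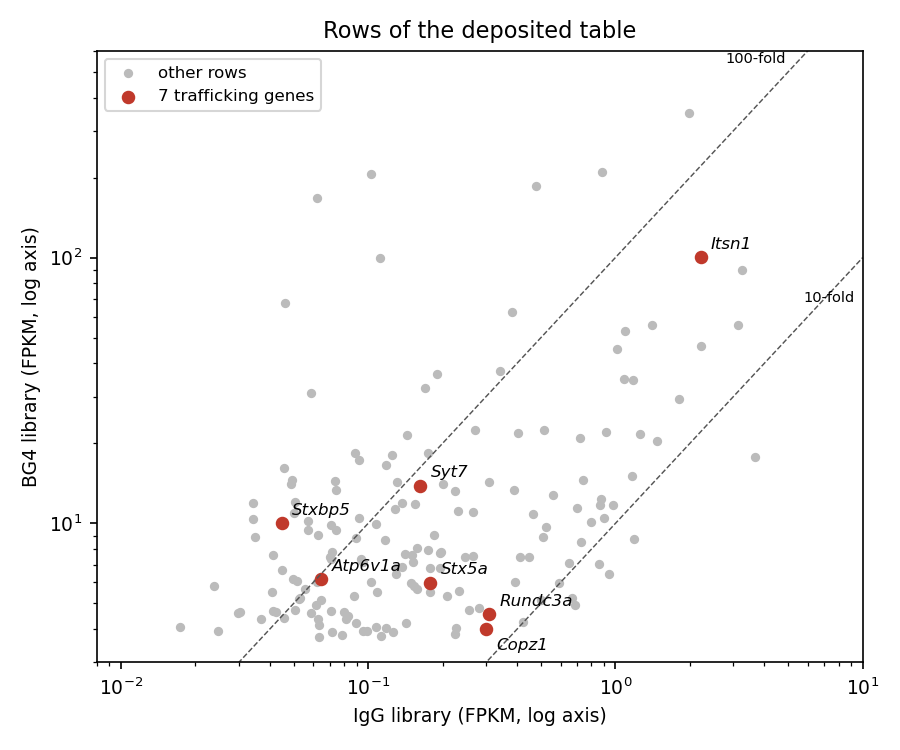
FPKM in BG4 against IgG (both log axes) for 168 of the 170 rows, with the 7 genes in red and 2 rows outside the axes left out. Dashed lines mark 10-fold and 100-fold: Stxbp5 is the red point above the 100-fold line, Atp6v1a (95.3-fold) lies just under it, and Copz1 and Rundc3a lie just above the 10-fold line.

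The order of the 7 genes depended on the amount added to each value. With 1 FPKM added, Itsn1 was first, followed by Syt7, Stxbp5, Atp6v1a, Stx5a, Rundc3a and Copz1. Without a pseudocount, Stxbp5 (log2 ratio 7.81) was first, then Atp6v1a (6.57), Syt7 (6.41) and Itsn1 (5.51). Stx5a, Rundc3a and Copz1 held places 5, 6 and 7 with 1 FPKM, 0.1 FPKM or nothing added. No neighbours in this order can be called different, since no spread was measured.

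**Figure D4:**
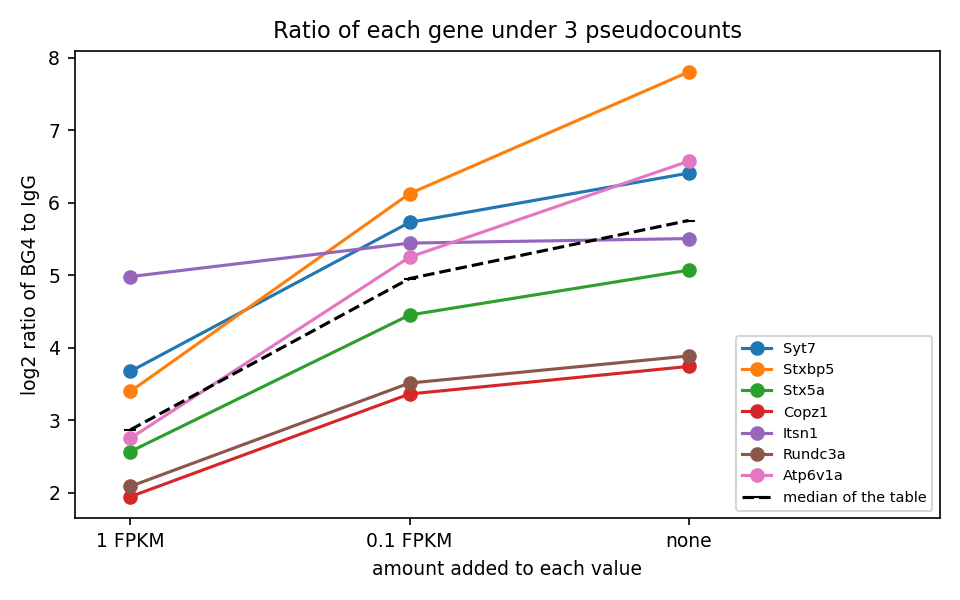
Log2 ratio of BG4 to IgG for each gene with 1 FPKM, 0.1 FPKM or nothing added to both values; the dashed line is the median of the table (170 rows, 169 without a pseudocount). Itsn1 moves least, from 4.98 to 5.51, and passes from above the median to below it, while Stxbp5 rises from 3.40 to 7.81.

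Among 214 genes on 8 lists of the same pathways, 8 were in the table: the 7 genes above and Clta, a clathrin light chain. The lists cover the pathways of the 7 genes and were chosen with earlier results known, so those 7 were present by construction. Of all protein-coding genes, 156 besides the 7 were in the table and 21788 were not. Nothing about the pathways is read from the counts per list. Clta had 0.0710 FPKM in IgG and 4.68 FPKM in BG4, a 65.9-fold ratio, with a q of 0.152 in the authors' deposited table. The lists of 6 groups gave 1 gene each: 1 of 33 SNARE proteins, 1 of 31 SNARE regulators, 1 of 17 synaptotagmins, 1 of 28 coat proteins, 1 of 25 proton pump subunits and accessory proteins, and 1 of 22 RUN domain proteins and vesicle adaptors. The 37 genes of clathrin endocytosis gave 2. None of 21 synaptic vesicle protein genes (synapsins, transmitter transporters and others) was in the table. A gene missing from a selected table has no known level, so the forebrain label could not be checked against neuronal markers either.

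What the transcripts share in sequence was not part of the choice by name, though motifs of Syt7, Itsn1 and Rundc3a were known when the genes were chosen. A putative G-quadruplex motif was taken as 4 runs of GGG or longer with loops of 1 to 7 bases of any kind, on the transcript strand of the longest annotated transcript, with no overlap between motifs. At least 1 motif was found in 5 of the 7 genes (71.4%), among them Syt7, Itsn1 and Rundc3a, whose motifs were already known. The share was 17.3% of the 156 other protein-coding genes of the table, 20.1% of 204 genes of the pathway lists not in the table, and 19.0% of 21788 other protein-coding genes. The 7 genes had longer transcripts, with a median of 4234 bases against 3803, 3810.5 and 2876 in these groups, in the same order. They also had more annotated transcripts, with a median of 12 against 9, 6 and 3. Genes were not matched on length or GC content in these shares. No test was made of the difference.

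Syt7, Itsn1 and Stxbp5 carried the motifs of their longest transcripts in the 3' UTR. That of Stxbp5 has no annotated 5' UTR, its coding sequence starting at base 1, so no 5' UTR motif could be found on it. Syt7 held 3, in a 6624-base transcript whose coding sequence ends at base 1888, and these motifs were present in 1 of its 15 annotated transcripts. Of 2352 protein-coding genes with a longest transcript within 20% of that length, 31.2% had a motif and 3.15% had at least 3. The sequences below, from the GENCODE transcripts (mm10, all coordinates on the strand of the gene), show the guanine runs in capitals.
Syt7, chr19:10450641-10450659, plus strand: GGGtggaGGGGtGGGGGGG
Syt7, chr19:10450774-10450802, plus strand: GGGGGGGaGGGacttgaGGGtgaggaGGG
Syt7, chr19:10451685-10451714, plus strand: GGGattggaGGGactGGGGagtcttGGGGG
Itsn1, chr16:91915999-91916026, plus strand: GGGacgtGGGGGtgtgaGGGtcaccGGG
Itsn1, chr16:91918045-91918065, plus strand: GGGGtGGGGGtaGGGtcaGGG
Stxbp5, chr10:9759519-9759540, minus strand: GGGaaGGGaaGGGGagtGGGGG

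The first Syt7 sequence shows only 3 separate runs and met the definition because guanines of its last run could serve as a loop. The other 5 hold 4 separate runs. Itsn1 carried its 2 motifs at bases 9414 and 11460 of a 14012-base transcript, in a 3' UTR that starts at base 5425. No other of its 31 annotated transcripts held a motif. Of 254 genes of similar length, 38.2% had a motif and 10.2% at least 2. In Stxbp5 the motif lay in the 3' UTR of 1 of 12 transcripts, and 35.2% of 1170 genes of similar length had one. Another Stxbp5 transcript, of 4702 bases, held 2 more in its 5' UTR.

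In their longest transcripts, Rundc3a and Atp6v1a carried their motifs in the 5' UTR, ahead of the coding sequence. In Rundc3a the 2 motifs began at bases 10 and 212 of 2046, ahead of a coding sequence that starts at base 274. Each of them was in 4 of the 10 annotated transcripts. Another Rundc3a transcript, of 1878 bases, held further motifs. It is annotated as retaining an intron and has no coding part. Of 3911 genes of similar length, 14.0% had a motif and 2.20% at least 2. The Atp6v1a motif began at base 201, ahead of a coding sequence from base 359, in 2 of 6 transcripts, and 24.7% of 5061 genes of similar length had a motif. The sequences below show the guanine runs of these 5' UTR motifs, with a 5' UTR motif of Stxbp5 last.
Rundc3a, chr11:102393412-102393438, plus strand: GGGGGGacGGGcgactGGGGGaGGGGG
Rundc3a, chr11:102393614-102393634, plus strand: GGGccGGGGcgccGGGtGGGG
Atp6v1a, chr16:44139083-44139105, minus strand: GGGcgaGGGGaagcGGGGtGGGG
Stxbp5 (4702-base transcript), chr10:9901035-9901059, minus strand: GGGtgcccGGGccatgcGGGccGGG

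**Figure D5:**
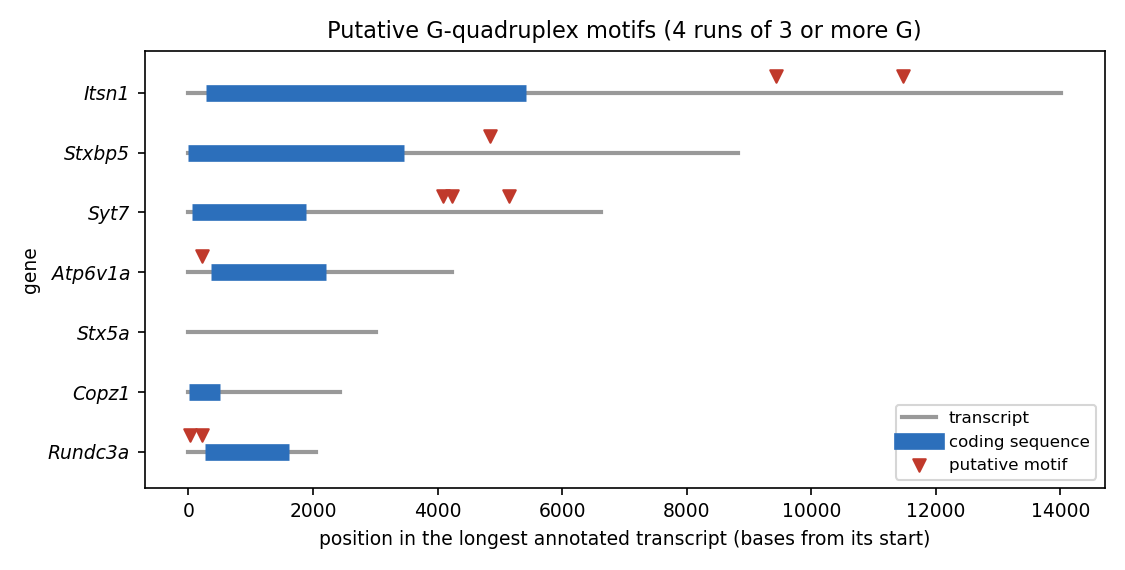
Longest annotated transcript of each gene (grey line, bases from its start), coding sequence (blue) and putative motifs (red triangles). The motifs of Syt7, Itsn1 and Stxbp5 lie after the coding sequence and those of Rundc3a and Atp6v1a before it. The longest Stx5a transcript has no coding part annotated, and the longest Stxbp5 transcript has no 5' UTR annotated.

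Copz1 had no motif in any of its 4 annotated transcripts, and Stx5a had none in its longest one. Another Stx5a transcript had a single stretch of 15 guanines, which met the definition without any separate runs. A motif was present in 17.0% of 4493 genes similar in length to Copz1 and in 20.01% of 5117 similar to Stx5a. A finer measure is the G4Hunter score, which averages guanine runs (up to 4 per base) minus cytosine runs over windows of 25 bases. The highest window scored 2.52 in Rundc3a, 2.24 in Stxbp5, Stx5a and Atp6v1a, 2.20 in Itsn1 and 2.16 in Syt7, but 1.40 in Copz1. A score as high as that of Rundc3a was reached by 2.81% of genes of similar length, and one as high as that of Copz1 by 55.9%. The Stx5a score comes from its longest transcript, which is annotated as retaining an intron and has no coding part. Of its 19 annotated transcripts, 1 holds that window. The highest windows of Stx5a and Copz1 are shown because they are what the longest transcripts of these 2 genes hold in place of a motif. Runs of 2 or more guanines are in capitals.
Stx5a, chr19:8741634-8741658, plus strand: GGcttgacGGGGGaGGGGGGaaGGG
Copz1, chr15:103298598-103298622, plus strand: aaGGagaGGGaaGGcaagtgtGGGG

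Motifs with runs of only 2 or more guanines were found in all 7 genes and in 98.1% of the other protein-coding genes of the table. Their density separated the genes differently. Rundc3a had 7.33 per kilobase against a median of 2.14 in genes of similar length, Syt7 4.23 against 1.80, Stx5a 3.98 against 2.09 and Itsn1 3.57 against 1.42. The density and GC content of Stx5a are those of its longest transcript, which has no coding part. Copz1, at 2.46 against 2.17, was near its median. Atp6v1a (1.42 against 2.002) and Stxbp5 (1.36 against 1.63) were below theirs, although both held a motif with longer runs. GC content was likewise highest in Rundc3a (60.9%) and Syt7 (54.7%) and lowest in Atp6v1a (44.6%) and Stxbp5 (42.2%), with Stx5a (47.5%), Copz1 (50.4%) and Itsn1 (50.8%) between them.

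The motifs were also set beside the BG4 values. The 5 genes with a motif had BG4 values from 4.56 FPKM (Rundc3a, 2 motifs) to 100.5 FPKM (Itsn1, 2 motifs), a range that holds the 5.99 FPKM of Stx5a, which had none in its longest transcript. Copz1, with none in any transcript, lay below that range at 4.01 FPKM and also had the lowest fold and the lowest G4Hunter score of the 7. The 3 highest BG4 values, of Itsn1, Syt7 and Stxbp5, belonged to genes with a motif. These 3 genes also had the longest transcripts of the 7 (14012, 6624 and 8825 bases). Motifs were more frequent in long transcripts: 38.2% of genes similar in length to Itsn1 had one, against 14.0% for Rundc3a. Whether motif and BG4 value go together was not tested. Rundc3a, with the densest guanine runs, had a fold of 14.8, and Stxbp5, with the lowest GC content, a fold of 224. With 7 genes and 1 library per antibody this is a description. A match to the letters is not a folded structure, and which transcript of each gene was present in the libraries is unknown.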

How the data were processed

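RNA bound by BG4 or by IgG was sequenced, 1 library each. Per the labels' protocols, the libraries were prepared with an Ion kit for total RNA. The deposited table holds FPKM values per gene, taken to be so from its Cuffdiff layout since the file header names no unit. Cufflinks and mm10 are named in the submitters' processing notes. For the aligner, the annotation and all versions, the sources used here give nothing. The deposited log2 values equal the log2 of the FPKM values and were not used further. The deposited p-value and q-value are the authors' and set 1 library against 1 library.

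Log2 ratios were computed with a pseudocount of 1 FPKM and with 0.1 or none as alternatives. Rows needed 1 FPKM in 1 library, which all met. Folds leave out 1 row with an IgG value under 0.001 FPKM. Depth is unknown, so no interval was computed. Loci start from 0 in the table, so 1 was added. Transcripts were those of GENCODE release M21 (mm10), matched by gene identifier, with similar length meaning within 20%. All 7 genes are named by rule; Clta is named from the pathway lists, of which 212 of 214 symbols matched a protein-coding gene. The motif search found each of the motifs planted in simulated sequences, which held no guanine outside the planted runs. Loops with guanine and longer guanine runs were not simulated. Genes and lists were chosen with earlier results of these data known. Python 3.11.15, pandas 2.3.3 and numpy 2.4.6 were used.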

Additional observations from a re-analysis of the deposited data

How the results depend on the processing

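The median log2 ratio of the 7 genes, 2.75, became 5.25 with 0.1 FPKM added and 5.51 with nothing added. Over the table it was 2.87, 4.95 and 5.76 in the same order. For the 7 genes it was 3.67 when at least 10 FPKM was required. That left 3 genes (Syt7, Stxbp5 and Itsn1) by construction, against 41.2% of the 170 rows. Low IgG values cause the first 2 shifts by construction. With each library divided by its own median, the median of the 7 genes turned to -0.26, and that of the table to -0.0096. Of the 7 genes, 0 were then above 2-fold and 1 (Copz1) was lower by more than 2-fold, against 17 and 29 of the 170 rows. On that scale the log2 ratio was -0.35 for Stx5a, -1.04 for Copz1, -0.26 for Itsn1 and -0.999 for Rundc3a, and above 0 for Syt7 (0.37), Stxbp5 (0.79) and Atp6v1a (0.30). The division centres the table by construction. Of the 7 genes, the number above 2-fold was 3 with 10 FPKM required, which was all that were left. The count was 6 at 4-fold (96.5% of rows), and 7 with 0.1 FPKM, no pseudocount or no filter. Single ratios moved by over 1.5-fold in 6 genes with 0.1 FPKM or none added, Itsn1 being the exception. The 5 genes with a motif (17.3% of the other protein-coding genes of the table) became 6 over any transcript (31.4%), 6 with loops to 12 bases (40.4%), 7 with runs of 2 guanines (98.1%) and 5 with loops that neither start nor end with guanine (16.0%). A G4Hunter score of 1.5, chosen after the data were seen, gave 6 of the 7 genes, against 60.3% of those other genes, 60.8% of the pathway-list genes not in the table and 46.7% of all protein-coding genes not in it. No paired analysis was possible because each antibody had a single library.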
